A study of Mus musculus with 4 samples.

Results

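The TGF-beta and activin signalling genes followed here are 9 of the 34097 genes counted in each library: the TGF-beta ligands Tgfb1, Tgfb2 and Tgfb3, the latent TGF-beta binding protein Ltbp2, the activin A subunit Inhba, the receptors Tgfbr1, Tgfbr2 and Acvr1b, and the inhibitory Smad gene Smad7. They were taken by symbol from the deposited gene lists, and each of the 9 was found once. The cells came from transplanted mouse hearts on day 5 after grafting, profiled by droplet single-cell RNA sequencing, which counts unique molecular identifiers (UMIs), 1 for each captured transcript. There were 3 libraries from allogeneic grafts, that is, hearts placed into genetically different recipients (replicates 1, 2 and 3), and 1 library from an isogeneic graft, in which donor and recipient are genetically identical (replicate 2). The labels name no strain, genotype, age, drug or cell sort for either group, and grafts of both groups were dissociated with enzymes, per the series' design text. No label ties a replicate to an animal of its own, and the p-values therefore speak only of the spread among the samples at hand, which can be technical.

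TGF-beta is secreted in a latent complex with its own propeptide and a binding protein, and is released by integrins or proteases. The active ligand joins the receptors TGFBR2 and TGFBR1, and activin A, a dimer of the Inhba product, signals through a type II activin receptor and ACVR1B. Both routes phosphorylate SMAD2 and SMAD3, which switch on matrix and contractile genes in fibroblasts, and SMAD7 feeds back on the type I receptors. In the injured heart this signalling is known for turning resident fibroblasts into matrix-producing, contractile cells, and in myeloid cells Inhba is known as an inflammatory ligand gene.

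Depth ran from 51054446 to 63434265 UMIs over the allogeneic libraries, and the isogeneic library held 100038951. After quality limits 4983, 8215 and 6311 allogeneic cells and 11386 isogeneic cells remained. Cells were placed in classes by 8 marker genes per class, none of them among the 9 signalling genes. In 41 of 41 sums of at least 20 cells the marker list of the class itself was the highest of the 10 lists. The same markers had placed the cells, so this outcome was largely fixed in advance and is no separate support for the classes. Cells that met no class made up 27.1%, 27.0% and 28.2% of the allogeneic libraries and 14.6% of the isogeneic one. Allogeneic replicate 3 stood apart: fibroblasts made up 29.8% of its cells, against 1.16% and 1.46% in allogeneic replicates 1 and 2, and 46.2% in the isogeneic library. Between 14 and 31 cell barcodes were shared by any pair of libraries. Levels are given in CPM, the UMIs of a gene per 1000000 UMIs of the same class and library, and differences as log2 fold changes from edgeR's quasi-likelihood test on the summed counts.

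Inhba differed between monocytes with and without Nos2. Allogeneic monocytes that also carried Nos2, the gene of the inducible nitric oxide synthase, had Inhba levels of 511, 615 and 205 CPM in replicates 1, 2 and 3. Monocytes of the same libraries without a Nos2 UMI had 175, 283 and 74.9 CPM, so each library was higher in its Nos2-positive cells. These values rest on 2213, 3398 and 292 Inhba UMIs in Nos2-positive cells and on 565, 1062 and 240 in Nos2-negative ones. In the isogeneic library 1 of 506 monocytes carried a Nos2 UMI, and the other 505 had an Inhba level of 17.7 CPM (exact Poisson 95% interval 13.2 to 23.4, counting error only).

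Across classes of the allogeneic grafts, the mean Inhba level was 444 ± 213 CPM in Nos2-positive monocytes and 178 ± 104 CPM in Nos2-negative monocytes (SD, n = 3). Fibroblasts followed with 160 ± 114 CPM, then macrophages with 101 ± 61.6 CPM and neutrophils with 63.0 ± 11.0 CPM. Of these, each class from Nos2-positive monocytes down to neutrophils overlapped its neighbour in the range of its libraries. Lymphatic endothelial cells, 27 and 36 in number, had 0 and 159 CPM in replicates 2 and 3, and mural cells, which surround vessels, 58.0 and 36.4 CPM. T cells (19.4 ± 6.63 CPM), endothelial cells (13.0 ± 3.49 CPM) and NK cells (3.05 ± 1.28 CPM) followed. The order within the isogeneic library was another one: fibroblasts had 101 CPM, neutrophils 54.9 CPM, endothelial cells 41.7 CPM, lymphatic endothelial cells 39.5 CPM, T cells 34.7 CPM from 3 UMIs, mural cells 22.3 CPM, monocytes 17.7 CPM, macrophages 4.18 CPM and B cells 0 CPM. Against all other gated cells of the same library, with the library as a block, Inhba was lower in T cells (log2 fold change -2.80, SE 0.55, edgeR adjusted p = 0.00325), endothelial cells (-2.59, SE 0.45, edgeR adjusted p = 0.0101), NK cells (-4.74, SE 0.46, edgeR adjusted p = 1.1e-05) and mural cells (-1.46, SE 0.44, edgeR adjusted p = 0.0260). It was also called lower in dendritic cells (edgeR adjusted p = 2.75e-14) and B cells (edgeR adjusted p = 8.44e-10), whose fitted changes of -5.73 and -5.66 rest on 2 and 1 Inhba UMIs and depend on the prior count. The share of all genes tested that was called lower was 32.7% in T cells, 17.4% in endothelial cells, 17.5% in NK cells, 7.66% in mural cells, 14% in dendritic cells and 14.4% in B cells. The endothelial call was lost without allogeneic replicate 3 (edgeR adjusted p = 0.0515) and the mural one without the isogeneic library (edgeR adjusted p = 0.169) and with DESeq2 (DESeq2 adjusted p = 0.123). Monocytes (1.63, SE 0.86, edgeR adjusted p = 0.191) and fibroblasts (0.77, SE 0.47, edgeR adjusted p = 0.219) did not pass over the 4 libraries.

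**Figure D1:**
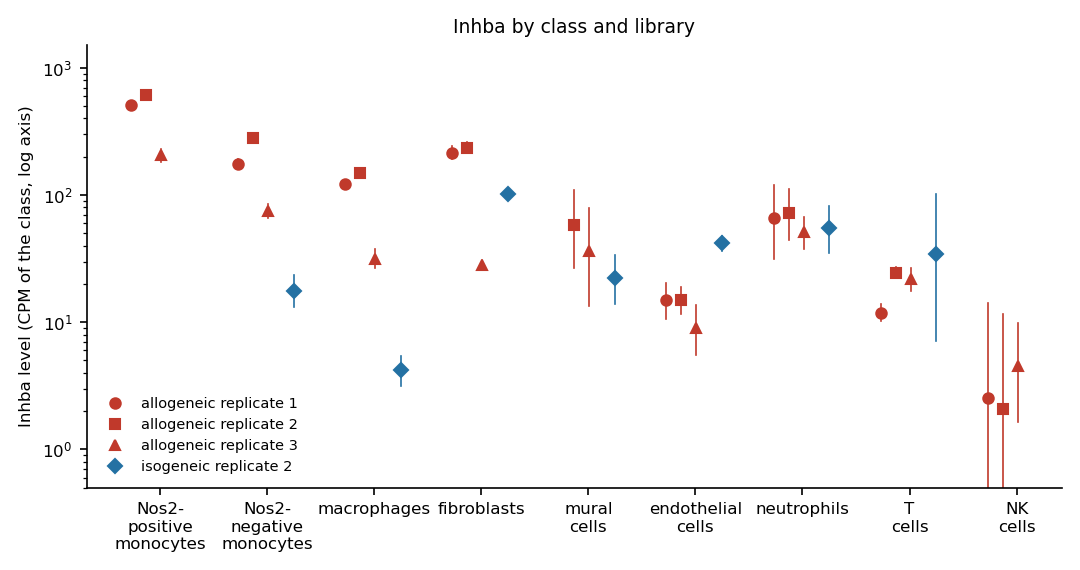
Inhba level in CPM of the class (log axis) by cell class, 1 point for each library with at least 20 cells of the class and bars for the exact Poisson 95% interval. Allogeneic points lie left of the isogeneic one: the 3 allogeneic values in Nos2-positive monocytes are 511, 615 and 205 CPM, and in macrophages all 3 lie above the isogeneic 4.18 CPM.

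Nos2-positive and Nos2-negative monocytes were then compared within the 3 allogeneic libraries. Nos2 chose the cells and is no result here, whereas Inhba took no part in the choice. Inhba was higher in the Nos2-positive cells (log2 fold change 1.42, SE 0.09, edgeR adjusted p = 6.73e-06), in 3 of 3 libraries. In this comparison 3.66% of the 10999 genes tested were called higher, and Inhba was the 1 of 7 members tested that was. Leaving Nos2 aside, 402 genes were called higher; 19 of these had a larger fold change and 1 gene of those tested had a smaller p-value than Inhba. Without allogeneic replicate 1, 2 or 3 the log2 fold change stayed between 1.32 and 1.59. Without the library term, when the spread between libraries enters the error, it was 1.38 (edgeR adjusted p = 0.716).

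The Inhba level also differed by the number of Nos2 UMIs in a cell, given here as a description. Monocytes with 0, 1, 2 and 3 or more Nos2 UMIs had 283, 353, 455 and 789 CPM of Inhba in allogeneic replicate 2, and 74.9, 96.4, 175 and 320 CPM in replicate 3. In replicate 1 the values were 175, 345, 200 and 637 CPM, so the step at 2 Nos2 UMIs, which rests on 51 cells, was lower than the one before it. Macrophages showed the same end points at lower levels. Those with 3 or more Nos2 UMIs had 225, 280 and 94.1 CPM, and those with none 38.5, 75.9 and 14.3 CPM. Between these, macrophages with 2 Nos2 UMIs had 8.73 CPM in replicate 3 (2 Inhba UMIs, 19 cells), below those with none. In replicate 1 they had 87.9 CPM, below the 116 CPM at 1 Nos2 UMI, while replicate 2 rose at each step. Cells with more Nos2 were also deeper. Monocytes with 3 or more Nos2 UMIs had median depths of 11417, 8694 and 10047.5 UMIs, against 9483, 7368.5 and 7677 in those with none. For macrophages the gap was larger, at 15676, 11493 and 14004 UMIs, against 8979, 7230 and 8051. The thinning that follows splits only monocytes by Nos2.

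**Figure D2:**
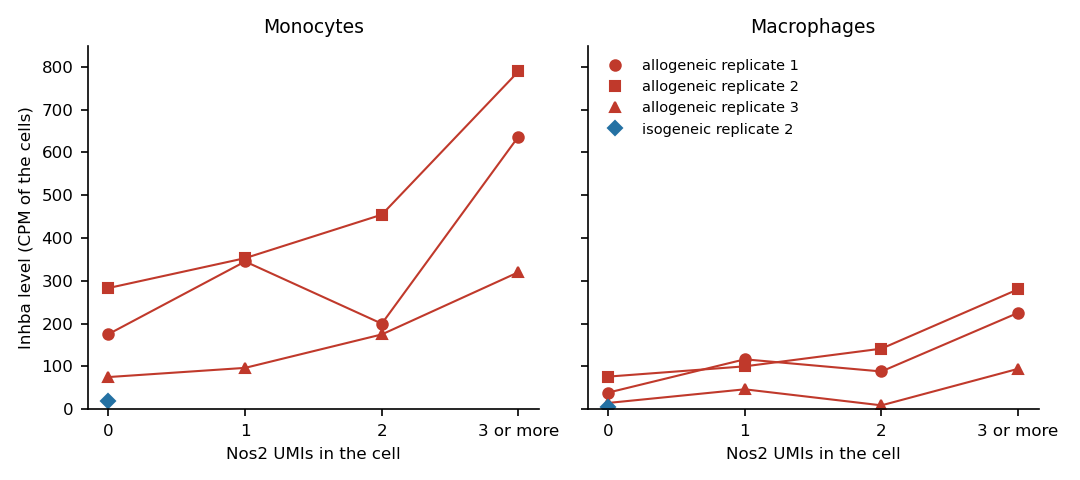
Inhba level in CPM (vertical axis, from 0) by the number of Nos2 UMIs in the cell, for monocytes and macrophages, 1 line for each allogeneic library and a single point for the isogeneic cells without Nos2; bins of under 10 cells are not drawn. Cells with 3 or more Nos2 UMIs had the highest Inhba level of the 4 bins in each allogeneic library and both classes.

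To set depth aside, each cell was thinned to 3000 UMIs before Nos2 was read, which kept 645 of 673, 1039 of 1116 and 507 of 553 monocytes of allogeneic replicates 1, 2 and 3. An Inhba UMI was then found in 41.6%, 45.9% and 26.3% of Nos2-positive monocytes and in 21.2%, 26.6% and 13.1% of Nos2-negative ones. Unthinned, these shares were 52.5%, 56.4% and 33.1%, against 25.2%, 30.3% and 15.0%. T cells, a class with a low Inhba level, were read as the background: 1.53%, 3.66% and 2.08% of thinned T cells carried an Inhba UMI, and 4.22%, 6.48% and 3.17% of unthinned ones, at median depths of 9694, 6832 and 5463 UMIs. Monocytes had median depths of 10565, 7978.5 and 8039 UMIs. The shares of both monocyte groups lay above the T cell shares in each library. Since T cells already had a low Inhba level in these libraries, this order followed from the choice of class and is no separate support.

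Between grafts, Inhba was higher in all 3 allogeneic libraries than in the isogeneic one in both myeloid classes. Macrophages had 123, 149 and 31.6 CPM in the allogeneic libraries, against 4.18 CPM (53 UMIs) in the isogeneic library. Monocytes had 368, 481 and 115 CPM in the allogeneic libraries, against 17.7 CPM (50 UMIs). The groups do not overlap, but the allogeneic libraries differ several-fold among themselves, replicate 3 being the lowest. With macrophages and monocytes joined as phagocytes, the log2 fold change was 4.52 (SE 0.95, edgeR adjusted p = 0.0514), just short of the threshold of 0.05. It was 4.65 in macrophages (SE 1.10, edgeR adjusted p = 0.0717) and 4.13 in monocytes (SE 0.99, edgeR adjusted p = 0.0864). The fits give the single isogeneic library the same spread as the allogeneic ones, with 2 residual degrees of freedom.

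The call in these 3 comparisons turned on the libraries kept and on the tool. Without allogeneic replicate 3 the edgeR adjusted p was 1.49e-11 in phagocytes (log2 fold change 4.93), 1.8e-149 in macrophages (5.08) and 1.14e-06 in monocytes (4.55), with a spread taken from 2 allogeneic libraries only. Without replicate 2 phagocytes passed as well (4.10, edgeR adjusted p = 0.00367), and without replicate 1 monocytes did (4.01, edgeR adjusted p = 0.0480). DESeq2 called Inhba in phagocytes (4.54, DESeq2 adjusted p = 0.000215), macrophages (4.65, DESeq2 adjusted p = 0.00156) and monocytes (4.14, DESeq2 adjusted p = 0.00485). The direction was the same in each of these fits.

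Fibroblasts gave a different picture for Inhba. Their level was 216, 235 and 28.3 CPM in allogeneic replicates 1, 2 and 3, and 101 CPM in the isogeneic library, so the groups overlap. The log2 fold change was 0.56 (SE 0.85, edgeR adjusted p = 0.865), and without allogeneic replicate 3 it was 1.07 (edgeR adjusted p = 0.0295). The phagocyte markers of these fibroblasts summed to 237, 188 and 182 CPM in the allogeneic libraries, against 125 CPM in the isogeneic one, with 8 of 8 detected in each, and Nos2 stood at 123, 115 and 38.7 CPM, against 0.57 CPM. In fibroblasts with at most 1 phagocyte marker, a choice made after the data were seen, Inhba had 141, 247 and 22.4 CPM in the allogeneic libraries, against 103 CPM in the isogeneic one, and Nos2 111, 133 and 39.2 CPM, against 0.48 CPM. The part of RNA from other cells in these values was not tested.

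The difference between classes was tested directly. The allogeneic effect on Inhba was larger in macrophages than in fibroblasts by 4.20 on the log2 scale (SE 0.39, edgeR adjusted p = 0.0029). Of the 17435 genes in that test 0.321% were called higher, and Inhba was the 1 of 9 members called. Tgfb3 followed with a difference of 2.83 (SE 0.72, edgeR adjusted p = 0.0899), which passed with DESeq2 (DESeq2 adjusted p = 0.0494) and when any 1 allogeneic library was left out. Endothelial cells went the other way: Inhba was lower in the allografts, with 15.0, 15.0 and 8.93 CPM in the allogeneic libraries, against 41.7 CPM in the isogeneic library (-1.61, SE 0.32, edgeR adjusted p = 0.0370). With a looser gate this change was -1.18 (edgeR adjusted p = 0.183). The fibroblast markers of endothelial cells summed to 45.7, 93.7 and 274 CPM in the allogeneic libraries, against 407 CPM in the isogeneic one, and their part in this result was not tested. Of the 12883 genes tested in endothelial cells 2.22% were called lower, and Inhba was the 1 of 9 members that was. The allogeneic effect in fibroblasts against that in endothelial cells (2.06, SE 0.63, edgeR adjusted p = 0.241) did not pass, and 0.397% of the 14106 genes did. Without allogeneic replicate 3 it was 2.59, with a spread taken from 2 allogeneic libraries only.

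Levels and cell numbers together set which cells held the graft's Inhba transcripts. Phagocytes held 75.5% (Wilson 95% interval 74.4 to 76.5), 70.5% (69.6 to 71.4) and 35.1% (33.0 to 37.3) of all Inhba UMIs in allogeneic replicates 1, 2 and 3, and 1.84% (1.56 to 2.18) in the isogeneic library. Fibroblasts held 4.82%, 3.89% and 32.5% in the allogeneic libraries, against 84.1% (83.3 to 84.9) in the isogeneic one. Phagocytes were 39.8%, 36.6% and 15.7% of allogeneic cells and 24.3% of isogeneic cells. Of Tgfb1 UMIs, phagocytes held 48.4%, 44.9% and 24.3% in the allogeneic libraries, against 15.3% in the isogeneic one, and T cells 27.8%, 25.0% and 9.29%, against 0.114%. Tgfb3 UMIs lay mostly in phagocytes in allogeneic replicates 1 and 2 (66.6% and 60.0%) and mostly in fibroblasts in replicate 3 (73.6%) and in the isogeneic library (85.6%).

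**Figure D3:**
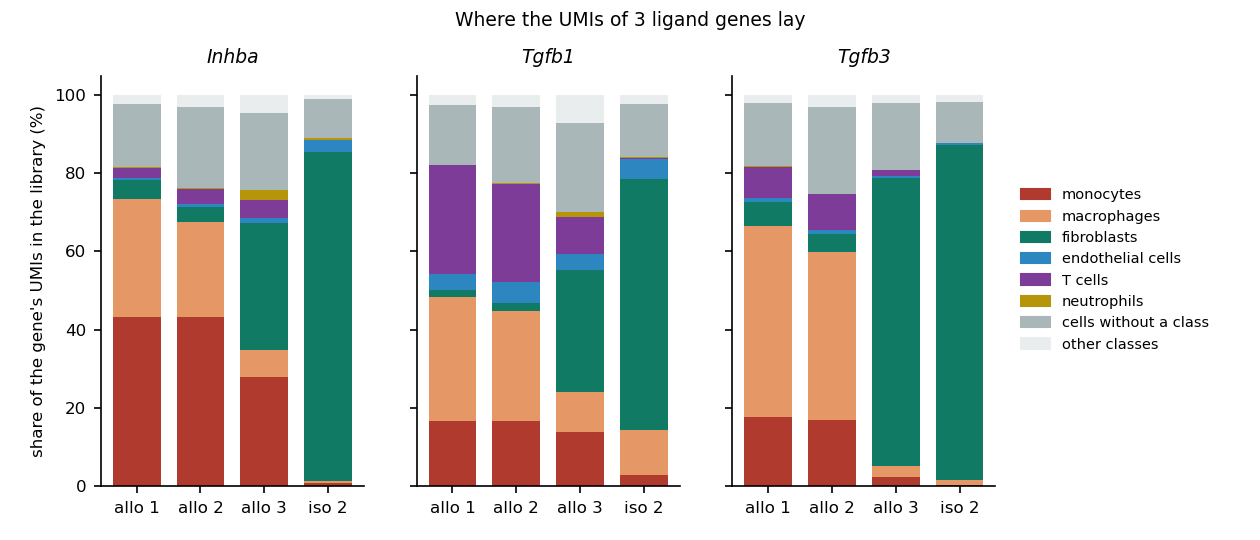
Share of each gene's UMIs (%) held by each class in every library, for Inhba, Tgfb1 and Tgfb3, with allogeneic replicates 1 to 3 left of the isogeneic library. Fibroblasts hold 84.1% of the isogeneic Inhba UMIs, while phagocytes (monocytes and macrophages) hold 75.5% and 70.5% of those in allogeneic replicates 1 and 2.

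Tgfb2, a ligand with a large part in heart development, and Ltbp2, an extracellular matrix protein that binds microfibrils, were both higher in fibroblasts than in the other gated cells. Tgfb2 had 48.9, 50.9 and 72.1 CPM in fibroblasts of allogeneic replicates 1, 2 and 3 and 70.3 CPM in those of the isogeneic library. In macrophages it had at most 1.06 CPM in the allogeneic libraries, against 3.86 CPM in the isogeneic one. Ltbp2 had 261, 274 and 162 CPM in allogeneic fibroblasts and 311 CPM in isogeneic ones, and between 1.14 and 4.59 CPM in allogeneic macrophages, against 11.8 CPM in isogeneic ones. Fibroblast markers in macrophages summed to 12.9, 21.0 and 138 CPM in the allogeneic libraries, against 256 CPM in the isogeneic one, so they move with these low levels. Against the other gated cells of the same library, fibroblasts were higher for Ltbp2 (log2 fold change 6.50, SE 0.71, edgeR adjusted p = 0.000696), Tgfb2 (4.66, SE 0.45, edgeR adjusted p = 0.000468) and Tgfb3 (2.07, SE 0.44, edgeR adjusted p = 0.00935). That made 3 of 9 members, where 19.7% of the 17928 genes tested were called higher. Fibroblasts were not alone in carrying Tgfb2 and Tgfb3. Tgfb2 in mural cells was 70.9 and 6.06 CPM in allogeneic replicates 2 and 3, from 11 UMIs and 1 UMI, against 48.8 CPM in the isogeneic library. In lymphatic endothelial cells it was 27.7 and 13.9 CPM, against 54.9 CPM. Tgfb3 in mural cells was 96.7 and 36.4 CPM in the same allogeneic libraries, against 114 CPM, and mural cells did not pass against the other gated cells (log2 fold change 1.08, SE 0.45, edgeR adjusted p = 0.126). Ltbp2 in mural cells was 0 and 6.06 CPM, against 9.55 CPM.

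The promoters of Inhba and Tgfb2 are shown for the ligand gene called in Nos2-positive monocytes and one called in fibroblasts. The 250 bases before each RefSeq start site are given on the gene's own strand, from the GRCm38.p6 table, with matches to 4 searched motifs in capitals. They lie at chr13:16011601-16011850 on the plus strand for Inhba and at chr1:186705990-186706239 on the minus strand for Tgfb2.
Inhba: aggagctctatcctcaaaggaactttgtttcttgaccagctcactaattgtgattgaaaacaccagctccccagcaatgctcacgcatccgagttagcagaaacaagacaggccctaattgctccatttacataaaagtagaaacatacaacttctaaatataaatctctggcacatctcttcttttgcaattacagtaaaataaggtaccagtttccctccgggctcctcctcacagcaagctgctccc
Tgfb2: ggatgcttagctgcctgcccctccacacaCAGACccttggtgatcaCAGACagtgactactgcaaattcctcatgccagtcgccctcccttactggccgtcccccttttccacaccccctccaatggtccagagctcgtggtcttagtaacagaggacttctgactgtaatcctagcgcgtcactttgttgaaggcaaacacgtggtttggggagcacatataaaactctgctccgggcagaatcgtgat

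The motifs searched on both strands were an AP-1 site (TGANTCA), a CRE (TGACGTCA), a GAS element (TTCNNNGAA) and the Smad motif (CAGAC), and none of them overlapped another here. The Tgfb2 window held 2 CAGAC matches, at 221 to 217 and 204 to 200 bases before the start. The Inhba window held no match to the 4 motifs as spelled. Such matches are common: of 32851 promoters of the same length, 42.2% held CAGAC, 7.02% the GAS letters, 6.75% the AP-1 letters and 1.55% the CRE. Of the 9 members, 7 were in the table.

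Tgfb1, the ligand carried by many immune cells, was spread over most classes. Monocytes had 176, 165 and 159 CPM of Tgfb1 in allogeneic replicates 1, 2 and 3, and 171 CPM in the isogeneic library. Macrophages had 160, 154 and 131 CPM, against 150 CPM. Neither class separated the grafts, with log2 fold changes of -0.10 (SE 0.19, edgeR adjusted p = 0.783) and 0.03 (SE 0.20, edgeR adjusted p = 0.932). NK cells had the highest mean Tgfb1 level in the allografts (269 CPM), at 280, 357 and 170 CPM. They were too few in the isogeneic library (5 cells) for a comparison. Lymphatic endothelial cells had a mean of 185 CPM (SD 19.6, 2 allogeneic libraries), above the NK cells of replicate 3. Against the other gated cells, NK cells were higher for Tgfb1 (0.71, SE 0.23, edgeR adjusted p = 0.0374) and Smad7 (0.71, SE 0.22, edgeR adjusted p = 0.0369), which is 2 of 9 members where 6.08% of the 16141 genes tested were called higher. Neither held without allogeneic replicate 1 (edgeR adjusted p = 0.0626 for Tgfb1 and 0.150 for Smad7) or without replicate 2 (0.406 and 0.344). Monocytes were higher for Tgfb1 (0.48, SE 0.14, edgeR adjusted p = 0.0449), 1 of 9 members where 13.2% of 17247 genes were called higher, and this call was lost when any 1 of the 3 allogeneic libraries was left out (edgeR adjusted p of 0.119, 0.149 and 0.123).

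**Figure D4:**
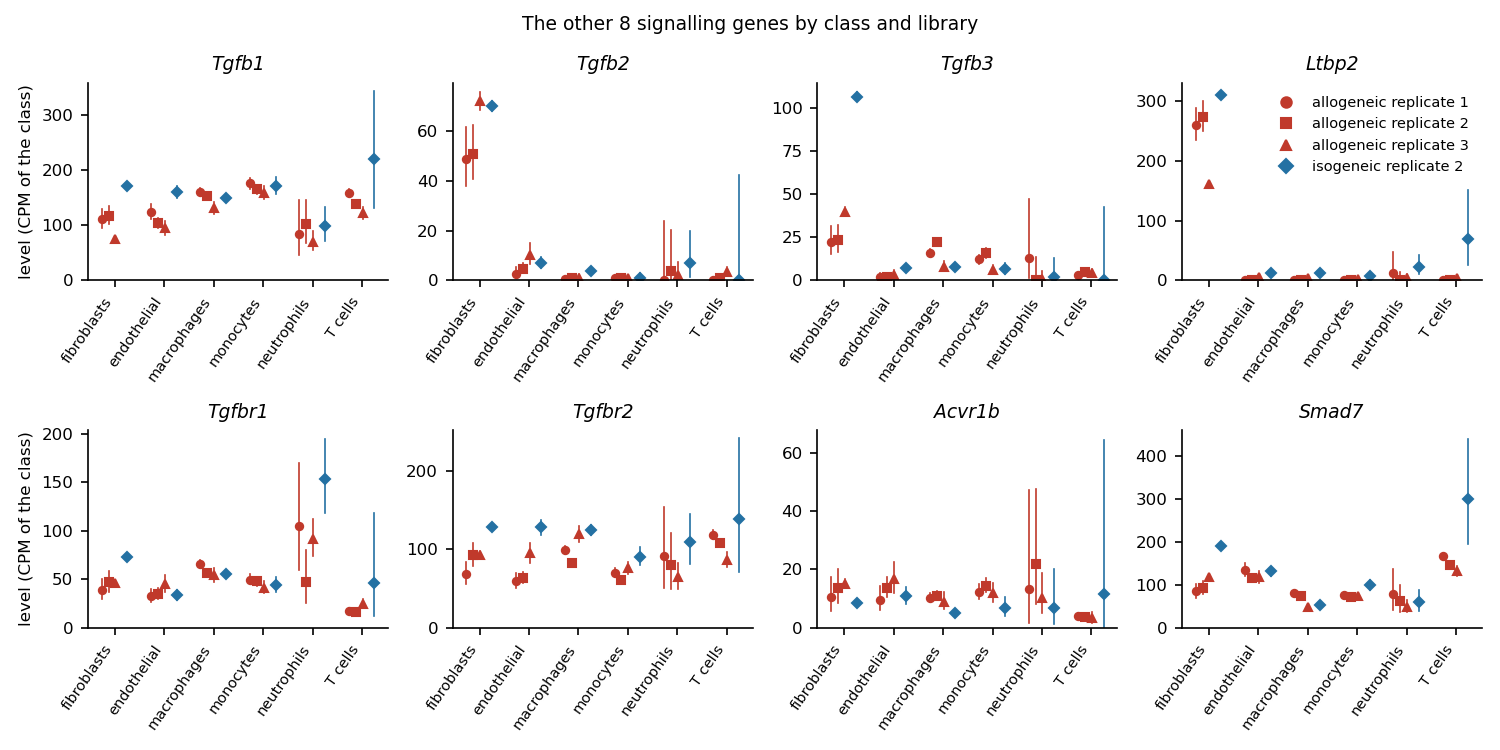
Levels in CPM of the class (vertical axes, from 0) of the other 8 signalling genes in 6 classes, 1 point for each library, with exact Poisson 95% intervals; allogeneic points lie left of the isogeneic one. Tgfb2 and Ltbp2 are highest in fibroblasts among these classes, Tgfb1 and Tgfbr2 are spread over all 6, and isogeneic T cells, 43 in number, have wide intervals.

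Of the receptor genes, Tgfbr1 was higher in neutrophils than in the other gated cells. It had 105, 47.1 and 91.6 CPM in neutrophils of allogeneic replicates 1, 2 and 3 and 153 CPM in those of the isogeneic library, from 64, 109 and 376 allogeneic and 303 isogeneic cells. Macrophages had 66.0, 56.6 and 54.6 CPM, against 55.8 CPM, and monocytes 49.8, 47.7 and 41.5 CPM, against 43.9 CPM, so neutrophils of replicate 2, with 13 UMIs, did not lie above either. Isogeneic B cells, 30 in number, had 147 CPM. The test gave neutrophils a higher level (log2 fold change 1.50, SE 0.32, edgeR adjusted p = 0.000327), 1 of 9 members where 14.8% of 17103 genes were called higher. T cells were lower for Tgfbr1 (-1.54, SE 0.22, edgeR adjusted p = 0.000644) and for the activin receptor gene Acvr1b (-1.85, SE 0.26, edgeR adjusted p = 0.0006), among 6 of 9 members called lower where 32.7% of 17446 genes were. Their Acvr1b level was 3.99, 3.57 and 3.22 CPM in the allogeneic libraries, against 11.6 CPM in the isogeneic library, a value that is 1 UMI. Tgfbr2 kept a level between 59.9 and 125 CPM in every library of fibroblasts, endothelial cells, macrophages and monocytes except isogeneic fibroblasts and endothelial cells, which had 129 and 128 CPM. With edgeR it was not called against the rest in any of those 4 classes (edgeR adjusted p of 0.726, 0.0990, 0.0696 and 0.0555), while DESeq2 called it lower in monocytes (-0.29, DESeq2 adjusted p = 0.0279).

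Smad7, whose product blocks the type I receptors, was lower in macrophages than in the other gated cells (-0.81, SE 0.25, edgeR adjusted p = 0.0479) and in monocytes (-0.47, SE 0.11, edgeR adjusted p = 0.0212), where 21.6% of 17432 and 19.8% of 17247 genes were called lower. Both calls were lost when any 1 allogeneic library was left out, with edgeR adjusted p of 0.0624, 0.0520 and 0.189 in macrophages and 0.0848, 0.0833 and 0.0861 in monocytes. In T cells it had 168, 147 and 131 CPM in the allogeneic libraries, and 301 CPM in the 43 isogeneic T cells. No gene was called between grafts in T cells with edgeR, where 1673 of 13869 had an unadjusted p under 0.05, 2 members among them, and DESeq2 called 153, with Ltbp2 the 1 member. Ltbp2 in T cells had a mean of 1.99 CPM in the allogeneic libraries, against 69.4 CPM in the isogeneic one, a value that is 6 UMIs. Fibroblasts held 87.3% of the Ltbp2 UMIs of the isogeneic library, and the part of their RNA in this call was not tested.

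In fibroblasts, 1 of the 9 members passed between grafts, where 0.678% of the 15771 genes tested were called lower. Tgfb3 had 22.4, 23.4 and 39.7 CPM in fibroblasts of allogeneic replicates 1, 2 and 3, and 106 CPM in those of the isogeneic library. The allogeneic libraries all lay below the isogeneic one, and the log2 fold change was -1.88 (SE 0.35, edgeR adjusted p = 0.0218). DESeq2 called the same gene and no other member. Without allogeneic replicate 2 the change was -1.73 (edgeR adjusted p = 0.130). Tgfb3 lies inside a stretch that Ttll5 covers on the other strand, and reads of the pair cannot be told apart unless the counting used strand, on which the sources used here are silent. The fibroblasts compared were few and deep in the allografts, 58 and 120 cells with median depths of 25048.5 and 13525 UMIs in replicates 1 and 2, next to 1879 cells at 8123 UMIs in replicate 3 and 5262 cells at 9455 UMIs in the isogeneic library.

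The other members did not pass in fibroblasts. Smad7 had 84.5, 92.5 and 119 CPM in the allogeneic libraries, against 190 CPM in the isogeneic one (log2 fold change -0.99, SE 0.30, edgeR adjusted p = 0.143), and without allogeneic replicate 3 it did pass (-1.19, edgeR adjusted p = 0.0177). Tgfb1 had 111, 118 and 75.4 CPM, against 172 CPM (-0.84, SE 0.30, edgeR adjusted p = 0.229). The receptor genes Tgfbr1 (39.1, 46.8 and 46.0 CPM, against 73.0 CPM) and Tgfbr2 (68.5, 93.0 and 93.3 CPM, against 129 CPM) were also below the isogeneic library in 3 of 3 allogeneic ones, with edgeR adjusted p of 0.219 and 0.384. Acvr1b was above it in 3 of 3, at 10.5, 13.5 and 15.1 CPM, against 8.51 CPM (0.60, SE 0.40, edgeR adjusted p = 0.605). Ltbp2 (-0.49, SE 0.33) and Tgfb2 (-0.32, SE 0.32) had edgeR adjusted p of 0.611 and 0.771. The median over the 9 members was -0.64, next to -0.01 over all genes tested.

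Next to these stood the genes that fibroblasts are known to switch on after TGF-beta, a list of 24, all of which were tested. In fibroblasts 4 of the 24 fell and 0 rose, where 0.678% of the 15771 genes tested were called lower. The 4 were Tagln and Acta2, which encode the contractile proteins transgelin and smooth muscle actin, and Ccn2 and Itga11. Ccn2 is a matricellular growth factor gene and Itga11 a collagen-binding integrin gene. Below 0 lay 20 of the 24, with a median of -0.93, next to -0.01 over all genes tested. Low values of this list were not particular to fibroblasts. In macrophages 23 of 24 lay below 0, with a median of -2.57, next to -0.013 over all genes tested. In endothelial cells 20 of 21 did, with a median of -1.28, next to -0.0037. The part of fibroblast RNA in those classes was not tested. The levels that follow are those of fibroblasts. Ccn2 had 354, 449 and 334 CPM in the allogeneic libraries, against 1516 CPM in the isogeneic one (log2 fold change -2.06, SE 0.28, edgeR adjusted p = 0.00442), and still passed when any 1 allogeneic library was left out. Tagln had 135, 191 and 303 CPM, against 1494 CPM (-2.87, SE 0.40, edgeR adjusted p = 0.00532). Acta2 had 426, 341 and 319 CPM, against 1110 CPM (-1.68, SE 0.27, edgeR adjusted p = 0.0113), and Itga11 10.5, 13.5 and 11.4 CPM, against 36.4 CPM (-1.68, SE 0.31, edgeR adjusted p = 0.0217).

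Without allogeneic replicate 2 the calls were lost for Tagln (log2 fold change -2.76, edgeR adjusted p = 0.0520), Acta2 (-1.61, edgeR adjusted p = 0.132) and Itga11 (-1.72, edgeR adjusted p = 0.112), at changes close to those with all libraries. Acta2 was also lost with the looser gate (-1.41, edgeR adjusted p = 0.0767). Postn, the gene of the matrix protein periostin, had 164, 186 and 443 CPM, against 1120 CPM (-2.11, SE 0.49, edgeR adjusted p = 0.0583), and passed without allogeneic replicate 1 (edgeR adjusted p = 0.00212) or replicate 3 (0.000447). Cthrc1, a collagen-related gene, had 48.2, 32.8 and 339 CPM, against 927 CPM, with an edgeR adjusted p of 0.204. Tgfbi lay on the other side, at 101, 93.6 and 60.8 CPM, against 31.5 CPM (1.35, SE 0.35, edgeR adjusted p = 0.0880), and passed without allogeneic replicate 1 (edgeR adjusted p = 0.0238) or replicate 3 (0.00668). Mural cell markers in fibroblasts, which share contractile genes with them, summed to 25.2, 52.1 and 40.6 CPM in the allogeneic libraries, against 66.1 CPM in the isogeneic one, with 3, 5 and 8 of 8 detected in the allogeneic libraries and 8 of 8 in the isogeneic one; Vtn, Myh11 and Higd1b were at 0 in allogeneic replicates 1 and 2. Their part in the fall of Tagln and Acta2 was not tested. In fibroblasts with at most 1 phagocyte marker the 4 genes still passed, with log2 fold changes from -1.73 for Itga11 to -3.23 for Tagln.

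**Figure D5:**
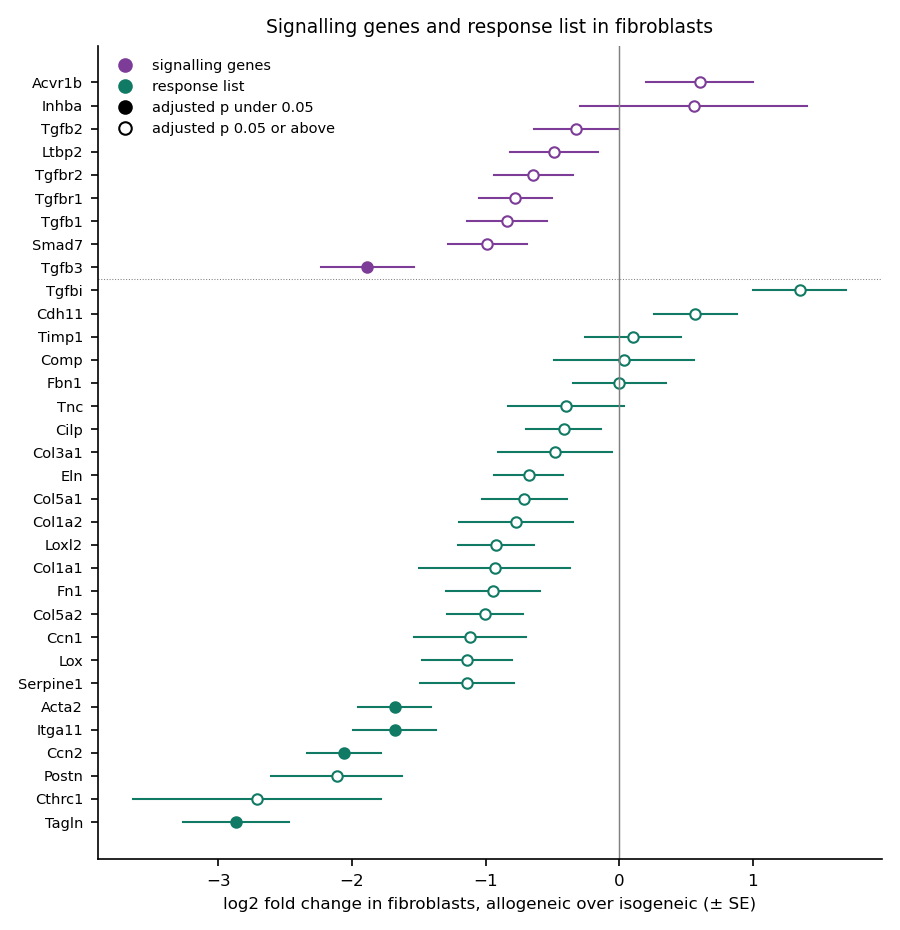
Log2 fold change in fibroblasts, allogeneic over isogeneic, with SE as bars, for the 9 signalling genes (top, purple) and the 24 genes of the response list (bottom, green); filled points had an edgeR adjusted p under 0.05. Tgfb3, Tagln, Ccn2, Itga11 and Acta2 are filled, and 20 of the 24 response genes lie below 0.

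Set side by side with Inhba in Nos2-positive monocytes, the response genes of fibroblasts did not share 1 order across the allogeneic libraries. Inhba in those monocytes was 511, 615 and 205 CPM in allogeneic replicates 1, 2 and 3. In fibroblasts Ccn2 and Itga11 were highest in replicate 2, Tagln and Postn in replicate 3 and Acta2 in replicate 1, each below the isogeneic library, in which Nos2-positive monocytes numbered 1. With 3 such libraries no relation between the measures can be tested.

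Of the remaining pathway genes, the list of ligands, latency proteins and activators had 15 of 17 genes tested in fibroblasts. Of these, 1 fell and 0 rose, where 0.678% of all 15771 genes were called lower. The gene that fell was Itgb5, a subunit of a TGF-beta-activating integrin. It had 76.9, 71.4 and 93.1 CPM in the allogeneic libraries, against 268 CPM in the isogeneic one (log2 fold change -1.78, SE 0.28, edgeR adjusted p = 0.00934, and 0.0973 without allogeneic replicate 2). None of 9 antagonists, 8 other receptors and 14 Smad and feedback genes tested in fibroblasts was called. With so small a share of all genes called lower, lists this short say little by holding no call. Fst, which encodes the activin-binding protein follistatin, was 1 of the 9 antagonists that were not called (log2 fold change 1.36, SE 0.56). It had 148, 129 and 46.0 CPM in the allogeneic libraries, against 39.0 CPM in the isogeneic one, so replicate 3 lay near the isogeneic level. In Nos2-positive monocytes, Furin, a protease gene whose product cleaves TGF-beta and activin precursors, had 122, 110 and 126 CPM, against 103, 98.9 and 89.8 CPM in Nos2-negative cells (0.35, SE 0.09, edgeR adjusted p = 0.0348). Tgif1, a Smad corepressor gene, had 220, 219 and 186 CPM, against 181, 181 and 171 CPM (0.30, SE 0.06, edgeR adjusted p = 0.0153). Nrros, which encodes a protein that holds latent TGF-beta on myeloid cells, was lower, at 98.1, 97.9 and 85.6 CPM, against 146, 134 and 102 CPM (-0.38, SE 0.08, edgeR adjusted p = 0.0182). These were 2 genes higher and 1 lower of 47 tested, next to 3.66% higher and 1.66% lower of all genes. All 3 calls were lost without allogeneic replicate 1 (edgeR adjusted p of 0.195 for Furin, 0.239 for Tgif1 and 0.332 for Nrros) and in cells thinned to 3000 UMIs (0.958, 0.422 and 0.217). Furin was also lost without replicate 3 (0.0651), and Tgif1 and Nrros without replicate 2 (0.0730 and 0.0508).

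In phagocytes no member passed between grafts with edgeR, where 8.49% of 16002 genes did. An unadjusted p under 0.05 was found for 4 of 9 members and for 4826 of the 16002 genes. DESeq2 called Inhba, Acvr1b and Ltbp2, among 2390 genes. Acvr1b was higher in the 3 allogeneic libraries, with 10.2, 10.9 and 8.94 CPM in macrophages, against 4.97 CPM in the isogeneic library. In phagocytes its log2 fold change was 1.10 (SE 0.25, edgeR adjusted p = 0.0603), and 0.0001 was the edgeR adjusted p without allogeneic replicate 3. In macrophages 0 of 9 members were called by edgeR (6.67% of 15306 genes) and in monocytes 0 of 8 (4.33% of 13086 genes). In each, 4 members had an unadjusted p under 0.05, next to 4410 of all genes in macrophages and 3066 in monocytes. Inhba was called by DESeq2 in both, among 1862 genes in macrophages and 936 in monocytes. In neutrophils 0 of 5 members tested were called by edgeR or DESeq2, where edgeR called 4.25% of 4945 genes and DESeq2 called 186. An unadjusted p under 0.05 was found for 0 of the 5 and for 713 of the 4945 genes. Of the 65 pathway list genes tested in macrophages 1 was called lower, where 2.66% of all genes were. It was Pmepa1, a Smad feedback gene, with 20.1, 16.4 and 34.5 CPM in the allogeneic libraries, against 124 CPM (-2.39, SE 0.38, edgeR adjusted p = 0.0333). The call was lost without allogeneic replicate 1 (0.0956) or 2 (0.0694) and with the looser gate (0.0926). Fibroblasts had 605, 726 and 445 CPM of Pmepa1, against 859 CPM, and the fibroblast markers in macrophages given above were also lower in the allografts. Of 60 list genes tested in endothelial cells 2 were called lower, where 2.22% of all genes were. Eln, the elastin gene, had 8.06, 12.4 and 28.1 CPM, against 209 CPM (-3.68, SE 0.47, edgeR adjusted p = 0.00955). Loxl2, a collagen cross-linking enzyme gene, had 3.07, 1.90 and 6.80 CPM, against 20.8 CPM (-2.45, SE 0.53, edgeR adjusted p = 0.0497, and DESeq2 adjusted p = 0.0650). The fibroblast markers in endothelial cells, at 45.7, 93.7 and 274 CPM, against 407 CPM, moved the same way as both genes. The part of fibroblast RNA in these 3 results was not tested.

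The genes whose levels followed each member most closely were taken over 40 class and library sums, as a description; sums of 1 library share its depth and its free RNA. Of 15201 genes, C1rl (Pearson r = 0.73 of log2 CPM), Ptgs2os (0.72), Gm17268 (0.72), Cd302 (0.71) and Msantd3 (0.71) were closest to Inhba. Tgfb2 was followed by Rhobtb3 (0.94), Meis2 (0.92) and Col4a5 (0.92), and Ltbp2 by Smoc2 (0.91), Tnfrsf11b (0.91) and Bdnf (0.90). For Tgfb3 the closest genes were Dennd2a (0.78), Axl (0.78) and Rdh5 (0.77), and for Tgfb1 Ern1 (0.71), Tpst2 (0.69) and Commd7 (0.68). Tgfbr1 was followed by Hbp1 (0.86), Rnf185 (0.85) and Pcf11 (0.79), Tgfbr2 by Ppp3ca (0.90), Man1a (0.87) and Ythdf3 (0.87), Acvr1b by Acadsb (0.78), Xaf1 (0.77) and Nbeal1 (0.74), and Smad7 by Ddit4 (0.79), Rabepk (0.78) and Med14 (0.76).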

How the data were processed

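Per the file headers and values, the deposited tables are counts: integer UMIs for each gene in each barcode, without scaling. The labels' protocols name the Chromium 3' chemistry v3.1. Cell Ranger 3.1.0 and the mm10 build stand in the submitters' processing notes, whereas the matrix headers give version 6.1.0. GENCODE M21 on mm10 held 32403 of the 34097 gene identifiers, with all 9 members.

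Barcodes with under 500 UMIs, under 300 genes or over 20% mitochondrial UMIs were left out. A cell entered a class with at least 3 of 8 markers detected and a lead of at least 2 over other classes. T against NK cells, and phagocytes against dendritic cells, were decided by the larger number. No doublet step other than this lead was used, and cells with a few markers of a second class remained: 30 of 58, 84 of 120 and 1321 of 1879 allogeneic fibroblasts and 4546 of 5262 isogeneic ones had at most 1 phagocyte marker. Phagocytes with at least 2 C1q chains and 10 C1q UMIs per 10000 were macrophages; the others were monocytes where Ly6c2, Plac8, Ccr2 or Chil3 was found. The classes are ranges set by these limits: 57 to 514 phagocytes of a library had 5 to 20 C1q UMIs per 10000.

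Counts were summed per library and class of at least 20 cells and tested by quasi-likelihood F-tests in edgeR 4.0.16 under R 4.3.3, with TMM scaling and filterByExpr defaults; p-values were adjusted by Benjamini-Hochberg over the genes tested and called under 0.05. The approximate SE is |log2 change| over the root of F. Comparisons within a library (Nos2 split, class against rest, difference of effects) had the library as a block, since both sums come from the same library. Mural, NK and dendritic cells were under 20 in a library and were not tested between grafts. An exact permutation test of 3 against 1 cannot go below p = 0.25. Intervals cover counting error only.

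Named were all 9 members, the listed pathway genes that passed in fibroblasts or in the Nos2 split, and the most alike genes; Fst, Postn, Cthrc1, Tgfbi, Pmepa1, Eln and Loxl2 were named after their values were seen. The members and lists were chosen with earlier results of these data known. On simulated counts the fibroblast design recovered 93 of 100 genes changed by 2 on the log2 scale, with 8 false calls among 15687 genes. The simulation gave every gene the same spread between libraries and changed only well-counted genes. These rates therefore need not hold for the real libraries. DESeq2 1.42.0, median-of-ratios scaling, no filter, other gates, other cell limits, thinning to 3000 UMIs and leaving out each library were the alternatives.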

Additional observations from a re-analysis of the deposited data

Results flagged for a closer look

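The allogeneic effect on Inhba differed between macrophages and fibroblasts by 4.20 on the log2 scale (SE 0.39, edgeR adjusted p = 0.0029), larger in macrophages. Macrophages were at 123, 149 and 31.6 CPM in the allogeneic libraries and 4.18 CPM in the isogeneic one, and fibroblasts at 216, 235 and 28.3 CPM, against 101 CPM. It was marked because the difference between the classes passed its own test.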

How the results depend on the processing

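Over 56 results for single genes, 534 of 642 alternative values kept their direction and their side of the threshold, 64 lost the call, 39 gained it and 5 changed sign. The 5 were uncalled changes in Nos2-positive against Nos2-negative monocytes: Acvr1b with cells thinned to 3000 UMIs (0.47), Tgfb1 over all phagocytes (0.026) and Tgfb1 and Smad7 with 1 allogeneic library left out, from -0.12 to 0.000543 and from -0.21 to 0.019. Genes called with all libraries numbered 468 in fibroblasts, 725 in endothelial cells, 1358 in phagocytes, 1021 in macrophages, 566 in monocytes, 210 in neutrophils, 0 in T cells, 586 in the Nos2 split, 56 for fibroblasts against endothelial cells and 289 for macrophages against fibroblasts. With no filter they numbered 1573, 1345, 2041, 1779, 1095, 246, 25, 934, 512 and 1230 in the same order. DESeq2 called 2390 in phagocytes, 1862 in macrophages, 936 in monocytes, 153 in T cells, 238 in the Nos2 split and 110 for fibroblasts against endothelial cells. A looser gate gave 528 in macrophages, 3 in T cells, 24 for fibroblasts against endothelial cells and 10 for macrophages against fibroblasts, for which a stricter gate gave 136 and leaving out the 5% of cells with most UMIs 495. Leaving out 1 allogeneic library in turn gave 189 to 1243 in fibroblasts, 509 to 5287 in endothelial cells, 344 to 8447 in phagocytes, 137 to 8116 in macrophages, 235 to 4138 in monocytes, 231 to 536 in neutrophils, 0 to 579 in T cells, 209 to 767 in the Nos2 split, 57 to 1514 for fibroblasts against endothelial cells, 528 to 3020 for macrophages against fibroblasts and 31 to 36 member and class pairs called against the rest, next to 40 with all libraries. The highest of each came without replicate 3, except for the class pairs. Thinning gave 302 genes in the Nos2 split. The cause of these shifts was not tested.

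With no replicate block, the Nos2 split called 1 gene and the class comparisons 22 pairs. No paired analysis was possible between grafts because the groups share 1 replicate number. The lone isogeneic library, and the 58 and 120 fibroblasts of allogeneic replicates 1 and 2, limit what can be said of fibroblasts.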
